A study of Mus musculus with 24 samples.

Results

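Wnt, Notch, BMP and TGF-beta signaling genes were examined for H3K9ac, the acetylation of lysine 9 of histone H3 that marks active promoters. The 76 members were the protein-coding GENCODE vM21 genes whose symbol consists of Wnt, Fzd, Notch, Dll, Hes, Bmp, Smad or Tgfb followed by a digit, together with Tgfbr1, Tgfbr2, Tgfbr3, Bmpr1a, Bmpr1b, Bmpr2, Hey1, Hey2, Heyl and Jag2, out of 21755 protein-coding genes on chromosomes 1 to 19 and X. This symbol rule also took in 3 genes with other roles, namely Bmp1, a protease that processes procollagen, Bmp2k, a kinase, and Tgfb1i1, an adaptor of focal adhesions. The cells were 4T1, a mouse mammary carcinoma line, grown as 3D spheroids for 5 days. Of the 24 samples, the 12 H3K9ac libraries were used and the 12 input libraries were not analysed here. The 4 groups of 3 libraries were scramble control cells, CPT1a knockout cells and KAT2a knockout cells, each in medium with 75 µM palmitate, and CPT1a knockout cells in medium with 5 mM acetate, for which the labels do not state whether palmitate was also present. CPT1a carries long-chain fatty acids into mitochondria, where their oxidation yields acetyl-CoA, and KAT2a is an acetyltransferase of histones and other proteins. According to the study's methods, the lines were made with doxycycline-inducible Cas9 and a pair of guides per gene, and the control guide targeted EGFP. Neither the guide carried by each library is given in the labels, nor whether the 3 libraries of a group came from separate cultures, so the spread between them may be technical.

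Secreted Wnt proteins bind Frizzled receptors and stabilise beta-catenin or act through other branches. Notch receptors are cleaved when they bind Delta or Jagged ligands on a neighbouring cell, and the released fragment switches on Hes and Hey repressors. BMP and TGF-beta ligands bind receptor kinases that phosphorylate Smad proteins. Smad1, Smad5 and Smad9 serve the BMP branch, Smad2 and Smad3 the TGF-beta branch, Smad4 serves both, and Smad6 and Smad7 inhibit them. In mammary epithelium these pathways are known for their part in stem cell maintenance, branching and epithelial to mesenchymal transition.

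Each library was available as its own list of peaks, with 16212 to 34370 peaks per list. A promoter was defined as the bases up to 1 kb on either side of each annotated start site of a gene, and a gene was called in a library if a peak overlapped that window. The scramble lists stood apart from the others, with 29176 to 34370 peaks of median width 585 to 686 bp, against 16212 to 24639 peaks of median width 816 to 1147 bp in the 9 other lists. The calling depth, the mean fragment coverage of the genome recovered from the peak values, was 1.87 to 2.52 in scramble, 0.554 to 1.70 in CPT1a knockout, 0.66 to 1.91 in CPT1a knockout with acetate and 1.02 to 1.82 in KAT2a knockout. Depth and peak shape therefore moved with the contrast of scramble against the other groups, and their part in each result was not tested beyond the alternatives given beside it. Of 8 mammary epithelial marker genes, 6 to 7 were called per library, with Krt5 in none of the libraries and Krt14 in the 3 KAT2a knockout libraries only. Of 10 markers of blood, endothelial, fat and stromal cells, the fibroblast receptor gene Pdgfra was the only one called, in all 12 libraries. Cpt1a and Kat2a themselves had a promoter peak in all 12 libraries, which does not check the knockouts because guides in exons leave the promoter in place.

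The promoters that carry the main results are shown first, as far as RefSeq promoter sequences (GRCm38.p6, 250 bases before to 50 after the start) were at hand, which was so for 53 of the 76 members. Each is written in the direction of transcription. Capitals mark GGGCGG on either strand, the letters of a GC box bound by Sp factors, and in Smad6 also GTCTAGAC, the palindrome described for Smad3 and Smad4. Notch2, at chr3:98013288-98013587 on the plus strand, had a rank that differed from scramble in all 3 other groups. Fzd7, at chr1:59481897-59482196 on the plus strand, had the largest fall in rank. Fzd9, at chr5:135250998-135251297 on the minus strand, had no peak in scramble. Smad6, at chr9:64022010-64022309 on the minus strand, Dll4, at chr2:119325534-119325833 on the plus strand, and Tgfb1, at chr7:25686752-25687051 on the plus strand, were among the members whose peaks were widest relative to scramble. Width was taken here relative to the median of each library.
Notch2: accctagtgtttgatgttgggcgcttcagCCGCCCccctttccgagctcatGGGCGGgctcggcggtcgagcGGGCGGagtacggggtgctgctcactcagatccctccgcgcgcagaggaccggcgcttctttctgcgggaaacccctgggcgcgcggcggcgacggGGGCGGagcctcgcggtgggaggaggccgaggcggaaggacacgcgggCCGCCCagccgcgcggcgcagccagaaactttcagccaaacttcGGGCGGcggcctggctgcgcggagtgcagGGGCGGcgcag
Fzd7: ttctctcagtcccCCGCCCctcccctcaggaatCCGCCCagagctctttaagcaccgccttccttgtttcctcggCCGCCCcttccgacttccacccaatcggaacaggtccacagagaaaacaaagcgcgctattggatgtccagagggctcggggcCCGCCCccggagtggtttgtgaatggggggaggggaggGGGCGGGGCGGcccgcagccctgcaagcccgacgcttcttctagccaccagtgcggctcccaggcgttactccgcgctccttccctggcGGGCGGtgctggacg
Fzd9: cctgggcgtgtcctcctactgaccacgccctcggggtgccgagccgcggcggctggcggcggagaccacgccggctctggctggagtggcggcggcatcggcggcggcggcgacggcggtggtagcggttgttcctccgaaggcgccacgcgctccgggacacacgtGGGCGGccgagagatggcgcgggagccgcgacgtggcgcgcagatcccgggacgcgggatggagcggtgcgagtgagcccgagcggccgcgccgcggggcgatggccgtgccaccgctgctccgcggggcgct
Smad6: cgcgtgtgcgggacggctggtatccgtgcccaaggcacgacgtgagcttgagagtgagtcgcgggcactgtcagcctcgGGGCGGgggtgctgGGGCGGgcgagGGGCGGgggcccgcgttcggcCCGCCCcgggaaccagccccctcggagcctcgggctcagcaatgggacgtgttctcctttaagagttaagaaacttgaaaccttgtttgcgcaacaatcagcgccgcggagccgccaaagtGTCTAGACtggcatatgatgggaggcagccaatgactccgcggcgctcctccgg
Dll4: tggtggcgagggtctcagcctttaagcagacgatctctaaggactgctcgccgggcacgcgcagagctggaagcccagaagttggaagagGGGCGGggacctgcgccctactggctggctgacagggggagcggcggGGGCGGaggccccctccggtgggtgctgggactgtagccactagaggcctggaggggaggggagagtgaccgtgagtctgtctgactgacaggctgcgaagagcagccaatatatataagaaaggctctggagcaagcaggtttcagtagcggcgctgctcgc
Tgfb1: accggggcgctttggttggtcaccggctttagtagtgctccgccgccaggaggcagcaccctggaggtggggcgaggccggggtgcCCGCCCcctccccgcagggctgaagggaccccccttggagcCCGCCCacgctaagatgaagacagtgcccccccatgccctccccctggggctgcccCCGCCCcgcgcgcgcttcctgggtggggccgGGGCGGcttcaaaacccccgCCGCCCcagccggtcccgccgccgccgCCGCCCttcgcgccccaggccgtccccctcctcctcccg

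These windows were rich in CpG, with 53 CpG dinucleotides in the 300 bases of Fzd9, 41 in Notch2, 31 in Smad6, 30 in Tgfb1, 24 in Fzd7 and 17 in Dll4. GGGCGG was found 7 times each in Notch2 and Fzd7, 6 times in Tgfb1, 4 times in Smad6, 2 times in Dll4 and 1 time in Fzd9. Of 63 RefSeq promoters of members, 69.8% held it, against 65.2% of the promoters of genes called in all 12 libraries and 47.95% of all 20061 promoters of protein-coding genes. GTCTAGAC was present in 1 member promoter, that of Smad6, and in 0.229% of all promoters. TGGGAA, the core letters bound by the Notch effector Rbpj, was present in 22.2% of member promoters against 24.3% of all, and CTTTGAT or CTTTGAA, letters bound by Tcf and Lef factors, in 3.17% against 7.47%. A peak overlapped the printed window in all 12 libraries for Smad6 and Dll4, in 11 for Notch2 and Tgfb1, in 10 for Fzd7 and in 8 for Fzd9. For Notch2 and Tgfb1 the library without such a peak was a scramble library, although a peak lay elsewhere in the promoter.

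Next, the members were sorted by how many libraries called them. A promoter peak was found in all 12 libraries for 34 of the 76 members (44.7%), in some libraries for 10 (13.2%) and in none for 32 (42.1%). Over all protein-coding genes, the shares were 49.5%, 5.36% and 45.1%. All 3 Tgfb ligands, 7 of 8 Smads and 5 of 6 receptors were called in all 12 libraries, the exceptions being Smad9 and Bmpr1b, which were called in none. Of the 10 Bmp ligands, Bmp7 was called in all 12 libraries and the other 9 (Bmp2, Bmp3, Bmp4, Bmp5, Bmp6, Bmp8a, Bmp8b, Bmp10 and Bmp15) in none. Of 10 Frizzled receptors, 6 were called in all 12 libraries (Fzd2 to Fzd7), Fzd1 in 11 and Fzd9 in 8, while Fzd8 and Fzd10 were called in none. Of 19 Wnt ligands, Wnt7b and Wnt10a were called in all 12 libraries, Wnt7a, Wnt9a and Wnt11 in 11 each, Wnt10b in 4 and Wnt6 in 1, and the other 12 in none. Those 12 were Wnt1, Wnt2, Wnt2b, Wnt3, Wnt3a, Wnt4, Wnt5a, Wnt5b, Wnt8a, Wnt8b, Wnt9b and Wnt16.

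Of the Notch receptors, Notch1, Notch2 and Notch4 were called in all 12 libraries and Notch3 in 6. Dll1 and Dll4 were called in all 12 libraries, Jag2 in 2 and Dll3 in none. Among the Hes and Hey repressors, Hes1, Hes6 and Hes7 were called in all 12 libraries and Hey1 in 10, and Hes2, Hes3, Hes5, Hey2 and Heyl in none. The call did not always lie at the 5′ end of a gene. For Notch1, no library had a peak within 1 kb of the most upstream annotated start, and the calls came from internal starts. For Notch4, the strongest promoter peak also covered the promoter of Gpsm3 in 8 libraries or of Pbx2 in 4, for Hes7 that of 9130213A22Rik in 12 and for Fzd4 that of Tmem135 in 12, and for Bmp1 that of Sftpc in 4, so H3K9ac at these 4 members cannot be told apart from that of their neighbours in those libraries. The 32 members without a promoter peak lay at a median of 43.2 kb from the nearest peak, ranging from 2.79 kb for Hes5 to 681 kb for Wnt5a. Their promoters were rich in CpG for uncalled genes. The ratio of observed to expected CpG around the 5′ start had a median of 0.621 in these 32 members, against 0.227 in the 9811 protein-coding genes called in none of the libraries, while it was 0.805 in the 34 members called in all 12 and 0.743 in all 10777 such genes.

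**Figure D1:**
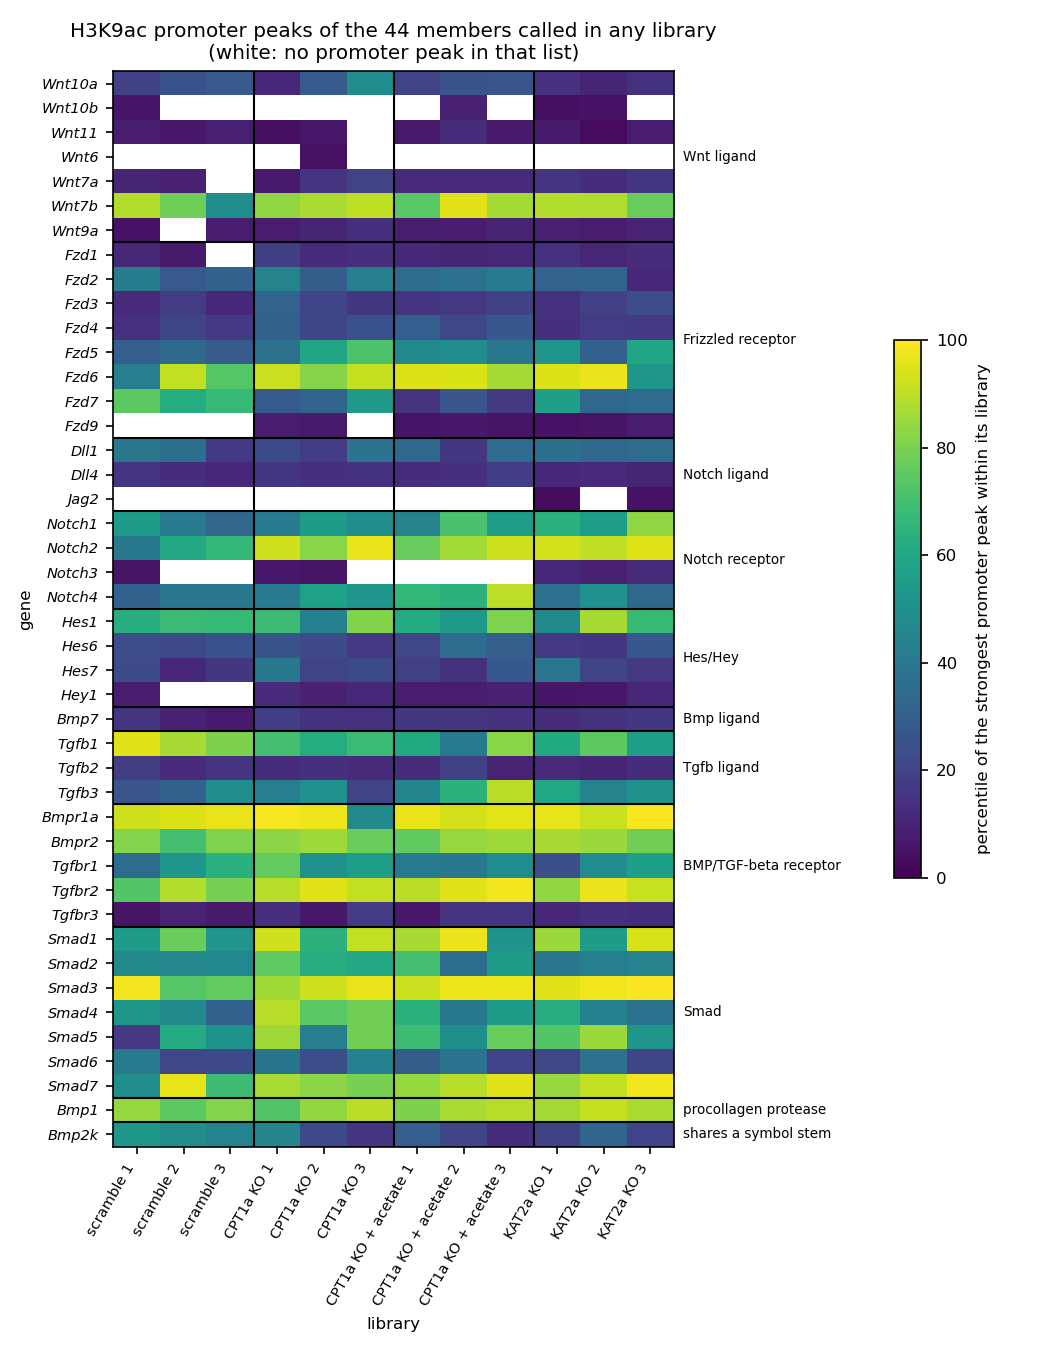
Rows are the 44 members with a promoter peak in at least 1 library, grouped by role, and columns are the 12 libraries. Colour gives the percentile (0 to 100) of the strongest promoter peak by fold enrichment within its library among genes called in at least 1 library, and white marks a library without a promoter peak; Notch3, Hey1 and Fzd9 are white in at least 2 of the 3 scramble libraries.

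The number of members called was 41, 37 and 36 in the scramble libraries, 41, 42 and 38 in CPT1a knockout, 40, 41 and 40 in CPT1a knockout with acetate, and 43, 42 and 42 in KAT2a knockout. The values of KAT2a knockout thus lay above those of scramble, by 42.3 ± 0.577 against 38 ± 2.65 members (SD, n = 3 each), while the deeper scramble lists held the most peaks. Over all protein-coding genes, 11150 to 11401 were called in scramble and 11466 to 11659 in KAT2a knockout, so the groups did not overlap there either. With 3 libraries against 3, an exact two-sided permutation test cannot go below p = 0.1.

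Fzd9, the Frizzled receptor gene that lies on chromosome 5 (135248938 to 135251230, minus strand), was the single member with a peak in all 3 libraries of one side and in 0 of 3 of the other within the 4 comparisons made. Notch3 met the same criterion between KAT2a knockout and the acetate group, which were not compared. Fzd9 had no promoter peak in scramble and a peak in CPT1a knockout libraries 1 and 2. It also had a peak in all 3 libraries of the acetate group and of KAT2a knockout. The fold enrichment of a peak over its local background was 6.78 and 6.91 in CPT1a knockout, 4.25, 4.22 and 4.42 in the acetate group and 5.18, 5.74 and 6.88 in KAT2a knockout. These peaks were weak in each library, since Fzd9 ranked between percentiles 4.92 and 8.17 of all called genes wherever it was called. Of all 21755 genes, 0.754% were called in 3 of 3 against 0 of 3 in either direction between KAT2a knockout and scramble, and 0.345% between CPT1a knockout with acetate and scramble, so that 1 of 76 members is not far from the background.

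Among the other members with mixed calls, those of Notch3 were unevenly spread. Notch3, a receptor that also serves vascular mural cells, was called in scramble library 1 with a fold enrichment of 3.49, in CPT1a knockout libraries 1 and 2 with 5.65 and 5.37, in no library of the acetate group and in all 3 KAT2a knockout libraries with 10.1, 9.47 and 10.3. Its peaks were 200 bp wide in scramble, the narrowest width in any list, 347 and 281 bp in CPT1a knockout and 564, 649 and 550 bp in KAT2a knockout. Hey1, a repressor switched on by Notch, was called in scramble library 1 and in all 9 libraries of the other groups, with a fold enrichment of 5.12 in scramble and 5.02 to 10.4 elsewhere. Jag2, a Notch ligand, was called in KAT2a knockout libraries 1 and 3 alone. Wnt10b was called in scramble library 1, acetate library 2 and KAT2a knockout libraries 1 and 2, and Wnt6 in CPT1a knockout library 2. Fzd1 and Wnt7a were missing from scramble library 3, Wnt9a from scramble library 2 and Wnt11 from CPT1a knockout library 3, the shallowest list. When all lists were brought to the same calling depth, Fzd1, Wnt7a, Wnt9a and Tgfbr3 went from at least 1 call in scramble to 0 of 3 while staying at 3 of 3 in each of the other groups, whereas Fzd9 no longer met the criterion. The share of all genes called in 3 of 3 against 0 of 3 was then 1.38%, 1.73% and 1.085% for CPT1a knockout, KAT2a knockout and the acetate group, each set against scramble.

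Where a peak was present in all 12 libraries, its strength was compared by rank. Since fold enrichment was not scaled between lists, the strongest promoter peak of a gene was placed on a percentile scale within its library (0 the weakest, 100 the strongest) among the 10777 genes called in all 12 libraries, 34 of which were members. The 3 highest mean ranks belonged to Smad3, the TGF-beta effector, with a median percentile of 95.9 (range 70.7 to 99.4), Bmpr1a, a type I BMP receptor, with 95.5 (41.7 to 99.0), and Tgfbr2, the type II TGF-beta receptor, with 89.1 (70.3 to 97.8). The lowest value of Bmpr1a was that of CPT1a knockout library 3, and in the other 11 libraries it stood above percentile 90. The 3 lowest mean ranks belonged to Tgfbr3, the co-receptor betaglycan, with a median percentile of 3.49 (0.116 to 9.20), Tgfb2 with 3.75 (1.41 to 10.9) and Dll4 with 4.62 (2.07 to 9.46). The lower and the upper set did not overlap in any library, but the order within each changed from one library to the next. The median rank of the 34 members lay between percentiles 34.3 and 48.6 in every library, below the middle of the scale.

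The rank of Notch2, a receptor gene on chromosome 3 (98013527 to 98150361, plus strand), was higher in every library of the 3 other groups than in any scramble library. Its percentile was 34.2, 56.1 and 62.9 in scramble, 92.1, 80.2 and 96.6 in CPT1a knockout, 74.3, 84.5 and 91.8 in the acetate group and 92.4, 89.5 and 94.5 in KAT2a knockout. It rose by 38.6 ± 8.82 percentile points in CPT1a knockout (SE, adjusted p = 0.0153), by 41.1 ± 8.82 in KAT2a knockout (adjusted p = 0.0204) and by 32.5 ± 8.82 in the acetate group (adjusted p = 0.0451), each against scramble and with limma over all 10777 genes. The 3 comparisons share the same scramble libraries and are not independent. Without scramble library 1, the lowest of the 3, the differences were 30.1, 32.6 and 24.0 points (adjusted p = 0.0513, 0.0605 and 0.145). Over the 12 fits that each left out 1 library, the call was lost 2, 4 and 8 times, with adjusted p up to 0.0526, 0.0657 and 0.146. With replicate number as a block in the fit, the calls in both knockouts held (adjusted p = 0.0187 and 0.0255). That in the acetate group was lost (adjusted p = 0.0503).

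Fzd7, a Frizzled receptor gene on chromosome 1 (59482424 to 59486955, plus strand), moved the other way. Its percentile was 72.4, 58.1 and 63.3 in scramble, 20.5, 25.2 and 49.0 in CPT1a knockout, 6.25, 18.8 and 8.04 in the acetate group and 52.0, 26.5 and 28.2 in KAT2a knockout. No library of the other groups reached the scramble values. The rank fell by 53.5 ± 9.62 percentile points in the acetate group (adjusted p = 0.00755) and by 33.0 ± 9.62 in CPT1a knockout (adjusted p = 0.0415), and the difference in KAT2a knockout was -29.0 ± 9.62 (adjusted p = 0.101). The call in the acetate group held in all 12 fits that left out 1 library (adjusted p up to 0.0417), and that in CPT1a knockout was lost in 8 of them (adjusted p up to 0.124). With replicate number as a block in the fit, the call in CPT1a knockout was lost (adjusted p = 0.0599). That in the acetate group held (adjusted p = 0.0159). In a fit on the 8 libraries of similar calling depth, none of the members was called by rank in any comparison, while 1.49%, 0.0639% and 0.0639% of all genes were called in the 3 comparisons with scramble. The difference of Fzd7 in the acetate group was -52.8 points there (adjusted p = 0.0766), close to the value from all libraries. In an exact permutation test of the 3 scramble libraries against the other 9, Notch2 and Fzd7 both reached the smallest p that 220 assignments allow (p = 0.00455, two-sided), as did 8.44% of the 10777 genes, and the adjusted p was 0.0538.

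**Figure D2:**
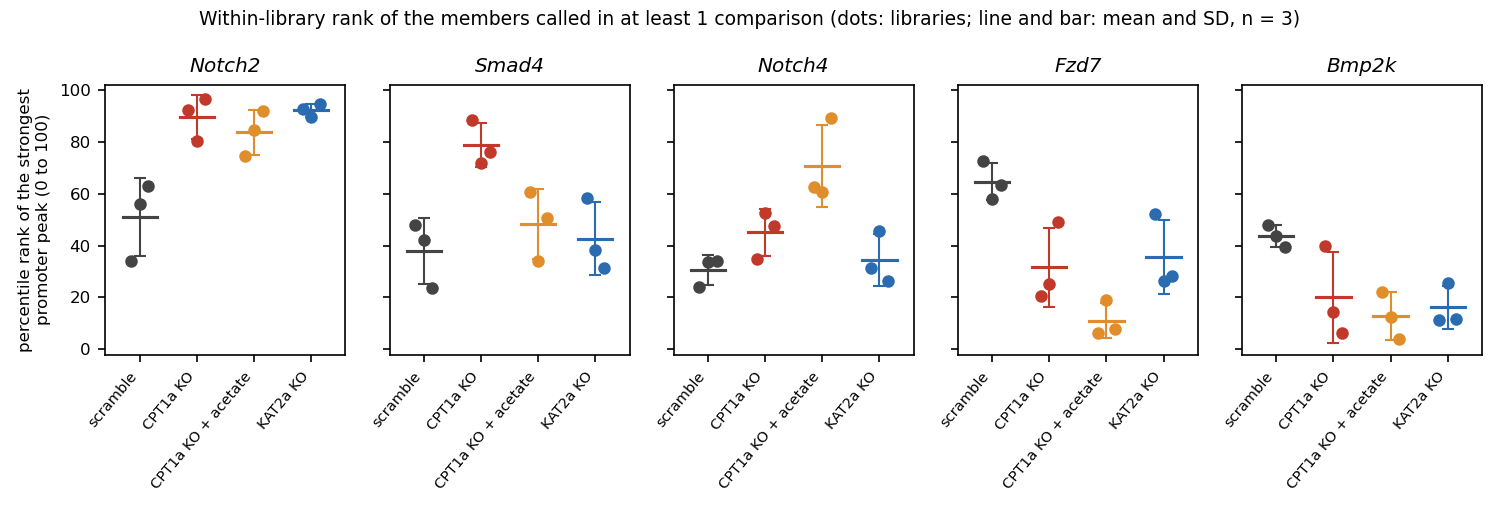
Each panel shows the percentile rank (0 to 100) of the strongest promoter peak of 1 member in the 12 libraries, with the mean and SD of each group of 3. Notch2 lies at 62.9 or below in scramble and at 74.3 or above in the other 9 libraries, and Fzd7 at 58.1 or above in scramble and at 52.0 or below in the others.

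In CPT1a knockout against scramble, 3 of 34 members were called by rank at an adjusted p below 0.05 (8.82%), against 10.0% of all genes tested. Beside Notch2 and Fzd7, this was Smad4, the Smad shared by both branches, with percentiles of 47.9, 42.1 and 23.7 in scramble and 88.3, 71.7 and 76.2 in CPT1a knockout. Smad4 rose by 40.8 ± 11.4 percentile points (adjusted p = 0.0345). Its percentiles were 60.4, 33.9 and 50.4 in the acetate group and 58.3, 38.2 and 31.4 in KAT2a knockout, which overlap with scramble. In KAT2a knockout, Notch2 was the 1 member called (2.94% against 4.41% of all genes). In CPT1a knockout with acetate against scramble, 4 of 34 members were called (11.8% against 5.56%), namely Notch2, Fzd7, Notch4 and Bmp2k. Notch4 had percentiles of 24.0, 33.8 and 33.9 in scramble and 62.7, 60.5 and 88.9 with acetate, a rise of 40.1 ± 10.4 (adjusted p = 0.0382), at a peak shared with Gpsm3 or Pbx2. Bmp2k fell by 30.8 ± 7.78, from 47.9, 43.8 and 39.3 in scramble to 22.3, 12.4 and 3.93 with acetate (adjusted p = 0.0343). The share of members called was thus below that of all genes in both knockouts and above it in the acetate group, on counts of 1 to 4 members. Without scramble library 1 the numbers called were 0, 0 and 1 in the 3 comparisons, the 1 being Fzd7 in the acetate group. Left-out libraries removed the call of Smad4 in 5 of 12 fits (adjusted p up to 0.138), that of Notch4 in 7 (up to 0.138) and that of Bmp2k in 6 (up to 0.131), and in each case the removal of any 1 scramble library was enough.

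Next, the width of the peaks was compared, which is a measure of the stretch of acetylated chromatin rather than of its summit. The width of a promoter was the summed length of the peaks that touched it. Raw widths were larger in scramble, where the median over the 10777 genes was 2743 to 3411 bp, than in CPT1a knockout (1658 to 2234 bp), CPT1a knockout with acetate (2006 to 2443 bp) and KAT2a knockout (2088 to 2566 bp). The median log2 width of all genes differed from that of scramble by -0.58 in CPT1a knockout, -0.35 in KAT2a knockout and -0.41 in the acetate group. Widths are therefore given relative to the median of their own library on the log2 scale, and each direction below is relative to that median. The median width of the 34 members was 2668 to 3612 bp in scramble, 2020 to 2701 bp in CPT1a knockout, 2489 to 2905 bp with acetate and 2438 to 2932 bp in KAT2a knockout.

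In CPT1a knockout, 15 of 34 members had wider and 2 narrower promoter peaks relative to scramble at an adjusted p below 0.05, against 13.8% of all genes wider and 7.45% narrower, but without centring on the library median 1 was wider and 12 were narrower, against 62.7% of all genes called in either direction. In KAT2a knockout, 16 were wider and 1 narrower, against 10.7% and 6.15% of all genes, and without centring 1 was wider and 3 narrower, against 22.1% called in either direction. In CPT1a knockout with acetate, 11 were wider and 2 narrower than in scramble, against 11.1% and 6.27% of all genes, and without centring 1 was wider and 4 narrower, against 33.6%. The shares of members that were wider were 44.1%, 47.1% and 32.4%. The median log2 difference over the 34 members was 0.32, 0.32 and 0.30, against 0.03 over all genes in each comparison. On the 8 libraries of similar calling depth, the numbers wider and narrower were 14 and 2, 14 and 1, and 12 and 0, against 20.8%, 14.6% and 14.0% of all genes called in either direction. After the trend of width with promoter GC content was removed, they were 13 and 2, 11 and 1, and 7 and 3, against 16.5%, 11.6% and 9.86%. The width of the strongest peak alone gave 5 and 1, 5 and 1, and 6 and 1, against 14.7%, 12.01% and 10.01%, so that the members then stood closer to all genes. Scramble promoters were covered by more separate peaks (a mean of 1.74 to 1.97 per member promoter against 1.18 to 1.59 in the other libraries). The same was seen over all genes tested (1.58 to 1.75 against 1.20 to 1.47).

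**Figure D3:**
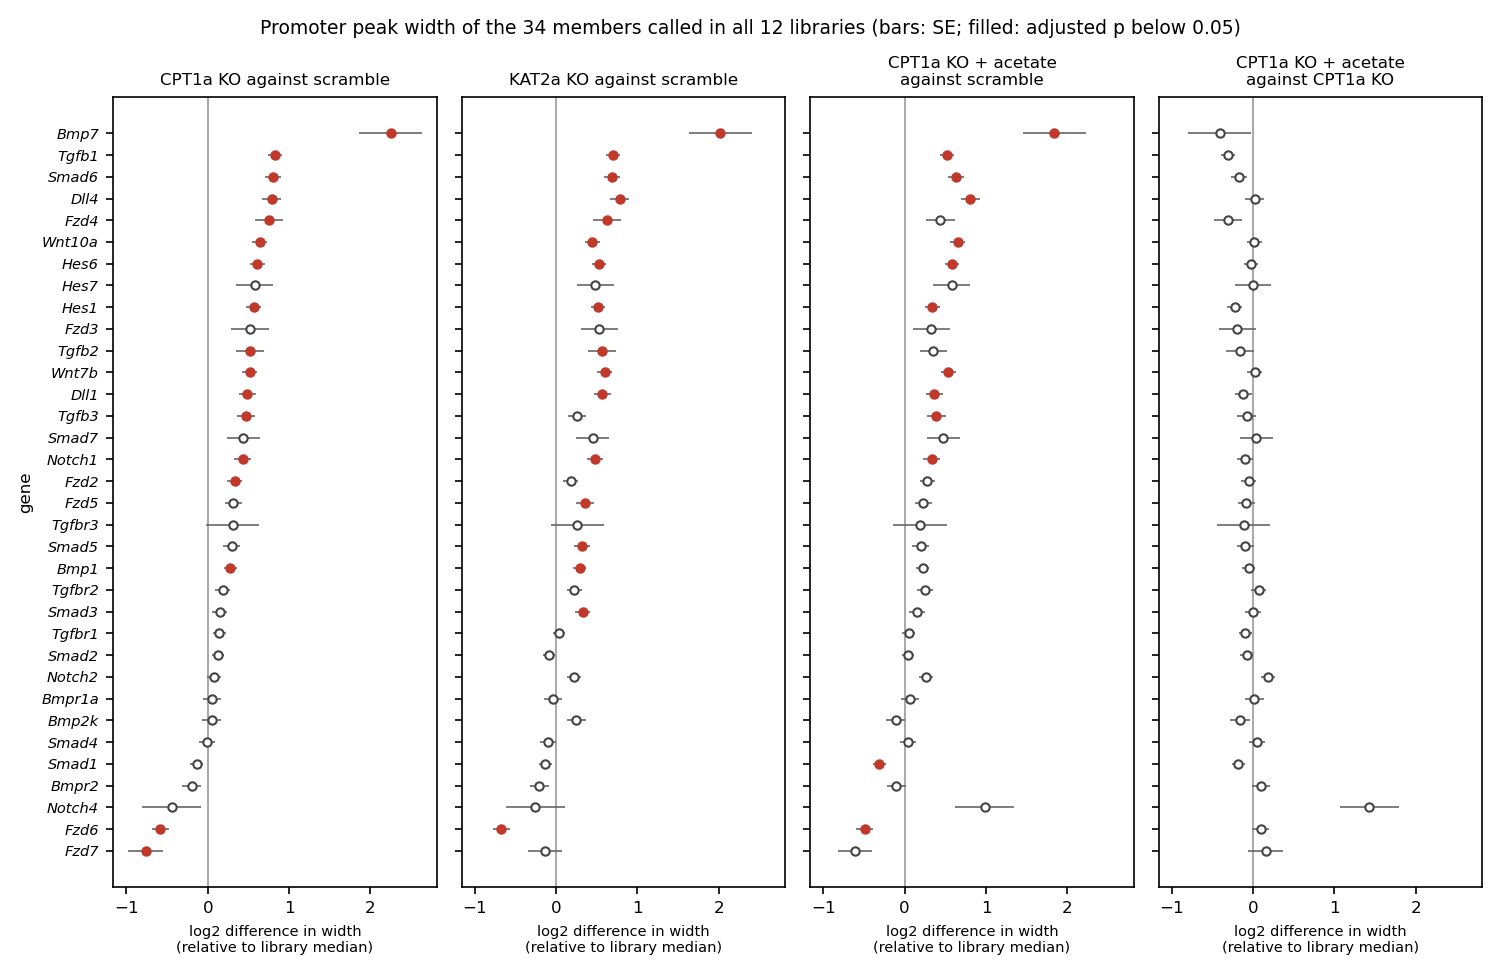
Points give the difference in log2 promoter peak width, relative to the library median, for the 34 members called in all 12 libraries in each of the 4 comparisons, with bars for the SE and filled points for an adjusted p below 0.05. Bmp7 stands furthest to the right in the 3 comparisons with scramble, and no point is filled for acetate against CPT1a knockout.

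Of the ligand genes with a peak in all 12 libraries, all 3 Tgfb ligands, Bmp7, Wnt7b, Wnt10a, Dll1 and Dll4 were wider in CPT1a knockout than in scramble relative to the library median. In KAT2a knockout Tgfb3 (0.26, adjusted p = 0.135) and in the acetate group Tgfb2 (0.35, adjusted p = 0.167) did not pass the test, and the others did. The calls of Tgfb2 in KAT2a knockout and of Tgfb3 with acetate were each lost in 5 of 12 fits that left out 1 library (adjusted p up to 0.139 and 0.111). That of Tgfb3 with acetate was also lost with the GC trend removed (adjusted p = 0.0933). Bmp7, a BMP ligand gene on chromosome 2 (172868012 to 172940321, minus strand), had widths of 909, 697 and 225 bp in scramble, 1936, 2030 and 1169 bp in CPT1a knockout, 1818, 902 and 1714 bp in the acetate group and 1629, 2406 and 1169 bp in KAT2a knockout. Its peak was short in all scramble libraries, and 1 acetate library fell within their range. Relative to the library median, it was wider by 2.25 ± 0.39 on the log2 scale in CPT1a knockout (adjusted p = 0.00221), by 2.02 ± 0.39 in KAT2a knockout (adjusted p = 0.00533) and by 1.84 ± 0.39 with acetate (adjusted p = 0.00864), that is 4.75-, 4.04- and 3.58-fold. Bmp7 was the 1 member that was wider in each of these comparisons without centring too, by 1.67, 1.67 and 1.43 on the log2 scale. In scramble, its peaks lay downstream of the start site and did not reach it, whereas in 8 of the 9 other libraries a peak spanned the start. Its summit remained weak, at a median percentile of 5.85.

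Tgfb1, the TGF-beta ligand most studied in carcinoma, was wider by 0.83 ± 0.08 in CPT1a knockout (adjusted p = 0.000100), 0.70 ± 0.08 in KAT2a knockout (adjusted p = 0.000329) and 0.52 ± 0.08 with acetate (adjusted p = 0.00263). Its widths were 3203, 2798 and 2446 bp in scramble, 3439, 3826 and 2808 bp in CPT1a knockout, 3311, 2530 and 3306 bp in the acetate group and 3495, 3973 and 3264 bp in KAT2a knockout. In base pairs, these ranges overlapped except for KAT2a knockout, and without centring the differences of 0.25, 0.35 and 0.11 did not pass the test. The rank of its summit did not rise with its width, at percentiles of 94.9, 85.4 and 78.2 in scramble and 34.7 to 80.2 in the other 9 libraries. Tgfb2 and Tgfb3 were wider by 0.52 ± 0.17 and 0.47 ± 0.11 in CPT1a knockout, of which the call of Tgfb2 was lost in 8 of 12 fits that left out 1 library (adjusted p up to 0.177). Wnt10a and Wnt7b were wider by 0.64 ± 0.09 and 0.52 ± 0.09 in CPT1a knockout, by 0.44 ± 0.09 and 0.60 ± 0.09 in KAT2a knockout and by 0.65 ± 0.09 and 0.54 ± 0.09 with acetate. Without centring, the differences of Tgfb2, Tgfb3 and Wnt7b in CPT1a knockout were -0.06, -0.11 and -0.06.

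In the Notch pathway, Dll1, Dll4, Hes1, Hes6 and Notch1 were wider as well, relative to the library median, while Hes7 did not pass the test (0.58, 0.48 and 0.58 in CPT1a knockout, KAT2a knockout and the acetate group, with adjusted p = 0.0845, 0.159 and 0.0944). Dll4 had widths of 2360, 1901 and 1793 bp in scramble, 2758, 2684 and 1684 bp in CPT1a knockout, 2482, 2820 and 2650 bp in the acetate group and 2889, 2871 and 2407 bp in KAT2a knockout. All 6 libraries of the acetate and KAT2a groups exceeded scramble in base pairs. The relative difference was 0.79 ± 0.12 in CPT1a knockout (adjusted p = 0.000909), 0.78 ± 0.12 in KAT2a knockout (adjusted p = 0.00146) and 0.81 ± 0.12 with acetate (adjusted p = 0.00126). Without centring, the differences of Dll4 were 0.21, 0.44 and 0.40 in the same order and did not pass the test. Dll1 was wider by 0.49 ± 0.11, 0.56 ± 0.11 and 0.37 ± 0.11 in the same order. Hes1, the principal Notch target among the repressors, was wider by 0.57 ± 0.09, 0.51 ± 0.09 and 0.34 ± 0.09, and Hes6 by 0.61 ± 0.09, 0.53 ± 0.09 and 0.58 ± 0.09. Notch1 was wider by 0.43 ± 0.10, 0.48 ± 0.10 and 0.33 ± 0.10, but with the GC trend removed it was called in none of the 3 (adjusted p = 0.164, 0.107 and 0.352). Dll1 and Hes1 then lost their calls in the acetate group (adjusted p = 0.170 and 0.212) and kept them in both knockouts. In the acetate group, leaving out 1 library removed the call of Notch1 in 9 of 12 fits and those of Dll1 and Hes1 in 4 each. Without centring, the differences of Dll1, Hes1 and Notch1 were -0.09, -0.01 and -0.15 in CPT1a knockout and -0.04, -0.06 and -0.07 with acetate. For Notch2, whose rank rose, the width differed by 0.08, 0.22 and 0.26 and was not called.

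Among the transducers, Smad6 stood out. Smad6, an inhibitory Smad that BMP signaling induces, was wider by 0.81 ± 0.10 in CPT1a knockout (adjusted p = 0.000264), 0.69 ± 0.10 in KAT2a knockout (adjusted p = 0.00101) and 0.63 ± 0.10 with acetate (adjusted p = 0.00178), relative to the library median. Its widths were 1938, 1492 and 1645 bp in scramble, 2123, 2027 and 1777 bp in CPT1a knockout, 1941, 1865 and 2100 bp in the acetate group and 2021, 2420 and 1964 bp in KAT2a knockout. In base pairs, the KAT2a knockout values lay above all scramble values, while CPT1a knockout library 3 and acetate library 2 fell within their range. Without centring, the differences of Smad6 were 0.23, 0.34 and 0.23 in CPT1a knockout, KAT2a knockout and the acetate group and did not pass the test. Smad3 and Smad5 were wider in KAT2a knockout (0.32 ± 0.10 each), calls that were lost in 9 and 10 of 12 fits that left out 1 library, and their differences without centring were -0.02 and -0.03. Smad1 was narrower with acetate by -0.31 ± 0.08 (adjusted p = 0.0200). None of the 5 receptors of the BMP and TGF-beta branches that were called in all 12 libraries (Bmpr1a, Bmpr2, Tgfbr1, Tgfbr2 and Tgfbr3) passed the test by width in any comparison, with differences between -0.21 and 0.31 against scramble.

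Frizzled receptors went in both directions. Fzd6 was narrower in all groups, with widths of 4915, 3846 and 4428 bp in scramble, 1948, 2206 and 1732 bp in CPT1a knockout, 2329, 1854 and 3009 bp in the acetate group and 2200, 2447 and 1858 bp in KAT2a knockout. No library outside scramble reached the scramble values. In CPT1a knockout, the acetate group and KAT2a knockout in turn, it was narrower relative to the library median by -0.59 ± 0.11 (adjusted p = 0.00290), -0.49 ± 0.11 (adjusted p = 0.00989) and -0.67 ± 0.11 (adjusted p = 0.0020), and without centring by -1.16, -0.90 and -1.02. Its summit rank did not fall with the width, at percentiles of 36.8, 89.9 and 70.7 in scramble and 47.9 to 96.9 elsewhere. Fzd7 had widths of 8996, 7673 and 8616 bp in scramble, 2854, 4901 and 2599 bp in CPT1a knockout, 5345, 2527 and 5334 bp in the acetate group and 5788, 7613 and 4923 bp in KAT2a knockout. In each scramble library, 1 peak covered the whole short gene and ran beyond it, and of the other 9 libraries KAT2a knockout library 2 alone had such a peak. Fzd7 was narrower by -0.77 ± 0.21 in CPT1a knockout (adjusted p = 0.0239), while in KAT2a knockout and with acetate the differences of -0.14 and -0.61 did not pass the test. Fzd4 was wider in CPT1a knockout (0.75 ± 0.17) and in KAT2a knockout (0.62 ± 0.17), at a promoter shared with Tmem135, Fzd2 in CPT1a knockout (0.33 ± 0.09) and Fzd5 in KAT2a knockout (0.35 ± 0.11). The call of Fzd5 was lost in 8 of 12 fits that left out 1 library and with the GC trend removed (adjusted p = 0.220), and those of Fzd4 in KAT2a knockout, Fzd2 and Fzd7 in 4, 3 and 3 of 12 fits. Removal of the GC trend also ended the calls of Fzd4 in KAT2a knockout (adjusted p = 0.105) and of Fzd2 (adjusted p = 0.196). Those of Fzd4 and Fzd7 in CPT1a knockout held (adjusted p = 0.0460 and 0.0147). The differences of Fzd2 and Fzd5 without centring were -0.25 and 0.01.

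**Figure D4:**
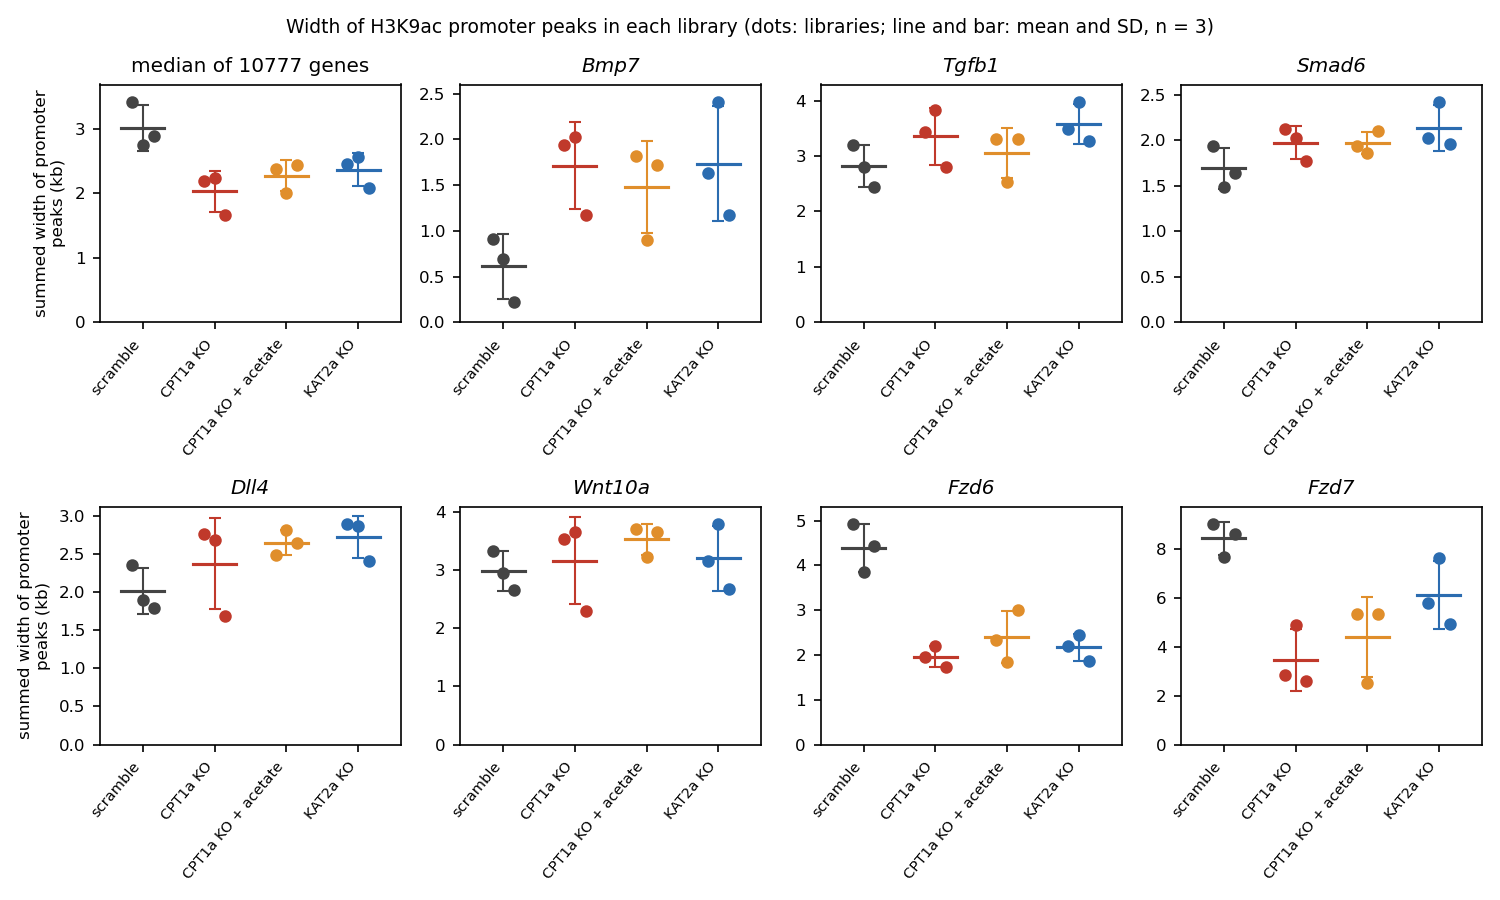
Each dot is the summed width (kb) of the promoter peaks in 1 library, with the mean and SD of each group of 3, for the median of the 10777 genes called in all 12 libraries and for 7 members. The median over all genes is highest in scramble, Bmp7 is lowest there, and Fzd6 and Fzd7 are highest there.

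**Figure D5:**
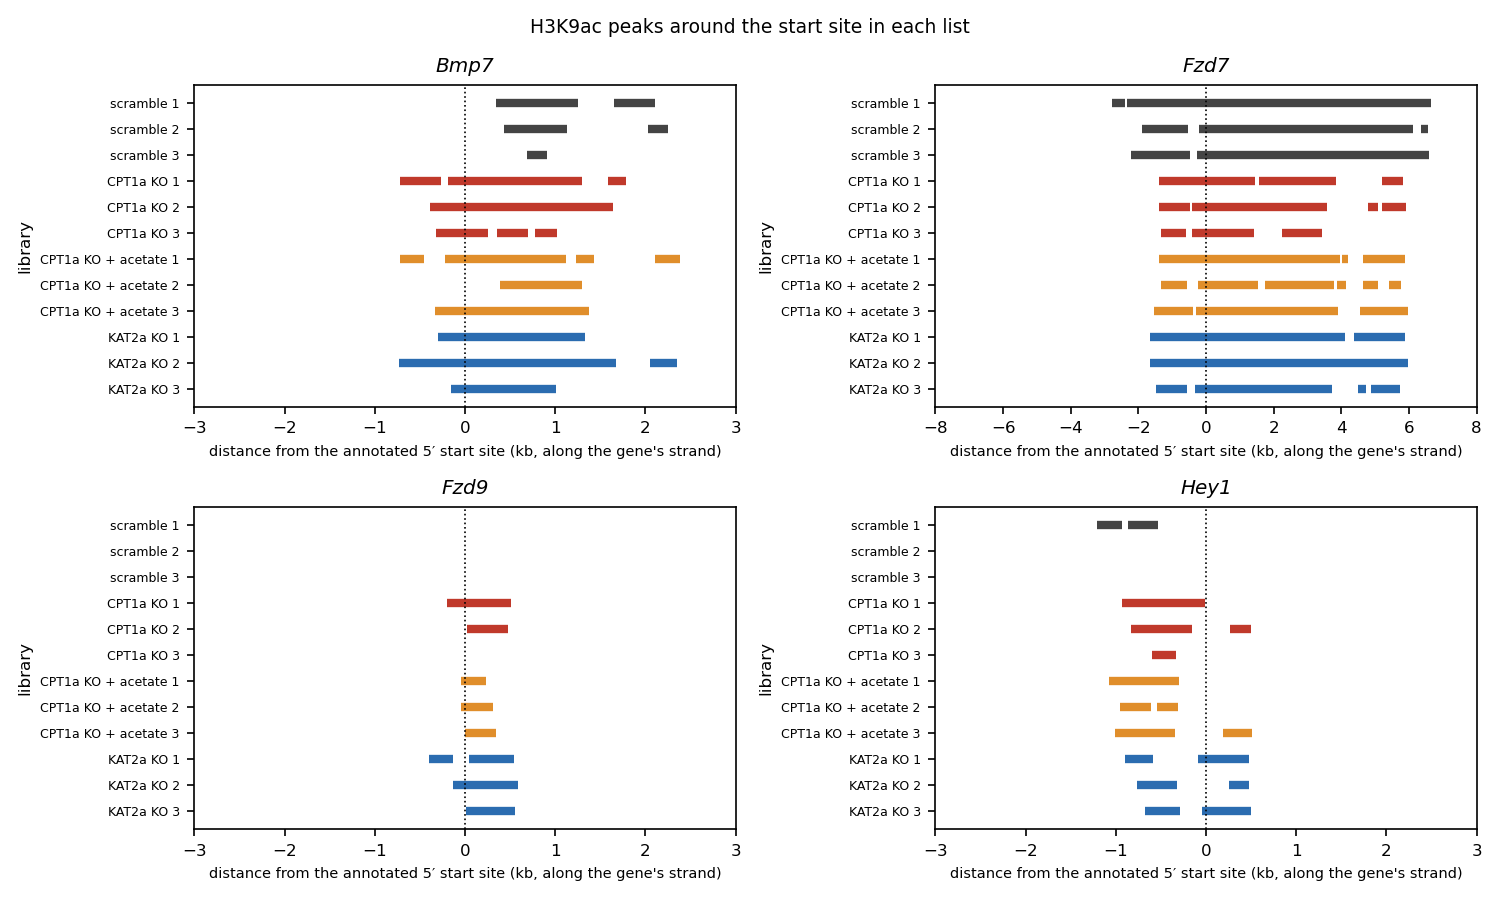
Bars are the peaks of each list around the annotated 5′ start of 4 members, in kb along the direction of the gene, coloured by group. The Bmp7 peaks of scramble start downstream of the start site, the Fzd7 peaks of scramble run to about 6 kb downstream, Fzd9 has no peak in scramble, and Hey1 has peaks in scramble library 1 only.

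Whether acetate changed the members in CPT1a knockout cells was asked by comparing both CPT1a knockout groups. No member was called by rank or by width with limma. By rank, 4 of 34 members had an unadjusted p below 0.05, against 981 of 10777 genes, and 0.0464% of all genes passed the adjusted threshold. By width, 4 of 34 had an unadjusted p below 0.05, against 674 of 10777 genes, and 0% of all genes passed. Those 4 by rank were Smad4, with a difference of -30.5 ± 11.4 percentile points (adjusted p = 0.444), Notch4 (25.7 ± 10.4, adjusted p = 0.480), Tgfb3 (31.5 ± 12.8, adjusted p = 0.480) and Fzd7 (-20.5 ± 9.62, adjusted p = 0.548). The 4 by width were Notch4 (1.43 ± 0.36, adjusted p = 0.626), Tgfb1 (-0.31 ± 0.08, adjusted p = 0.626), Hes1 (-0.23 ± 0.09, adjusted p = 0.759) and Smad1 (-0.18 ± 0.08, adjusted p = 0.793). Without overlap between the groups were 4 members by rank, against 14.2% of all genes, and 6 by width, against 13.2%. A difference at these members was therefore not detectable with these libraries, which does not show that acetate left them as they were.

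Finally, other genes of the pathways were taken from fixed lists, whose counts stand beside the shares of all genes called. These were 10.0%, 4.41% and 5.56% by rank in CPT1a knockout, KAT2a knockout and the acetate group against scramble, and by width 13.8% wider and 7.45% narrower, 10.7% and 6.15%, and 11.1% and 6.27%. In the Wnt list (42 genes), 19 were called in all 12 libraries, among them the effector Ctnnb1, the co-receptors Lrp5 and Lrp6 and the dishevelled genes Dvl1, Dvl2 and Dvl3, and 18 were called in none, among them Axin2, Lgr5, all 4 Rspo ligands and all 4 Dkk inhibitors. By rank, Rnf43, a ubiquitin ligase that removes Frizzled receptors, was the 1 gene of this list called. Its mean percentile was 66.3 (SD 12.9) in scramble, 7.66 (SD 4.93) for CPT1a knockout, 8.63 (SD 1.12) for the acetate group and 7.98 (SD 0.323) for KAT2a knockout, over 3 libraries each, and it fell by 58.6, 57.7 and 58.3 points against scramble (adjusted p = 0.000216, 0.000337 and 0.000193). By width, 2 of the list were wider and 1 narrower in CPT1a knockout, 1 and 0 in KAT2a knockout, and 2 and 0 with acetate.

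In the Notch list (28 genes), 25 were called in all 12 libraries, including the nuclear effector Rbpj and its co-activators Maml1, Maml2 and Maml3. By rank, 2 rose and 1 fell in CPT1a knockout, 1 rose in KAT2a knockout and none passed the test with acetate against scramble. By width relative to the library median, 5 were wider and 2 narrower in CPT1a knockout, 3 and 2 in KAT2a knockout, and 6 and 1 with acetate. Jag1, a Notch ligand, was wider by 0.83, 0.80 and 0.61, and Lfng, which glycosylates Notch, by 0.76, 0.51 and 0.66 in CPT1a knockout, KAT2a knockout and the acetate group. Numb, an inhibitor of Notch, was narrower by -0.32, -0.31 and -0.41, while its rank rose by 38.6 points in CPT1a knockout (adjusted p = 0.0404) and by 41.1 in KAT2a knockout (adjusted p = 0.0498).

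In the BMP and TGF-beta list (39 genes), 22 were called in all 12 libraries. By rank, 2 rose and 1 fell in CPT1a knockout, 0 passed the test in KAT2a knockout, and 2 rose and 1 fell in the acetate group, each against scramble. None of the genes of the 3 pathway lists passed the test by rank or width between the CPT1a knockout groups. By width, 9 were wider and 1 narrower in CPT1a knockout, 9 and 0 in KAT2a knockout, and 8 and 0 with acetate, relative to the library median. Fstl3, a secreted inhibitor of activin, was wider by 2.06, 1.61 and 2.15, Ltbp4, which binds latent TGF-beta, by 1.09, 0.75 and 0.90, and the BMP targets Id1 by 0.61, 0.67 and 0.55 and Id4 by 0.97, 1.10 and 0.78. As for Jag1 and Lfng, these values are relative to a median of all genes. That median itself differed from scramble by -0.58, -0.35 and -0.405 on the log2 scale in the same order. Acvr1b, a type I activin receptor, rose in rank by 50.9 points in CPT1a knockout (adjusted p = 0.00686) and by 43.0 with acetate (adjusted p = 0.0224). Inhbb, an activin subunit gene, was called in 0 of 3 scramble libraries and in all 9 libraries of the other groups. Of all 21755 genes, 28 were called in 0 of 3 scramble libraries and 3 of 3 of CPT1a knockout. The numbers were 152 for KAT2a knockout and 46 for the acetate group.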

How the data were processed

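H3K9ac was profiled by ChIPmentation in 12 libraries (3 per group). The study's methods name fastq-mcf, FastQC, BWA, mm10 and Picard, and the submitters' processing notes name Bowtie2, SAMtools, deepTools and MACS2, with mm10 and dm6 as builds. The deposited MACS2 peak lists were called per library and hold the fold enrichment of each summit as a ratio over local background, its −log10 p and −log10 q, and an integer score. The authors' lists were not scaled between libraries, and without the Drosophila spike-in, which was left out here, a shift of total H3K9ac could not be measured.

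Peaks were joined to GENCODE vM21 promoters (mm10, within 1 kb of any start site). Within-library percentiles of fold enrichment and log2 summed widths, centred on the library median, were tested over 10777 genes with limma 3.58.1 (trend, empirical Bayes; R 4.3.3) on all 12 libraries, with Benjamini-Hochberg adjustment over all genes (threshold 0.05). Single values were tested by exact permutation. The code was tested on simulated data. Precision is limited by 3 libraries per group, and read depth is known only as the calling depth implied by the peak values. Members and pathway lists were chosen with earlier results of these data known. Values in every library were given for members past the threshold by rank, the highest and lowest by mean rank, those called in 3 of 3 against 0 of 3 libraries, and up to 3 per direction by width; values of other members with mixed calls, and pathway genes, were chosen after they were seen. Python 3.11.15, pandas 2.3.3, numpy 2.4.6 and scipy 1.17.1 were used.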

Additional observations from a re-analysis of the deposited data

How the results depend on the processing

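The number of members called by rank depended on the measure. Ranks by −log10 p gave 8 in CPT1a knockout, 8 in KAT2a knockout and 7 with acetate, each against scramble (3, 1 and 4 of 34 in the report), against 31.9%, 21.6% and 23.7% of all genes. Removal of the GC trend gave 6, 3 and 2 (all genes 9.47%, 3.43% and 4.48%). Fits on only the groups compared gave 0, 0 and 2 (all genes 2.25%, 0% and 3.96%). Normal scores gave 2 with acetate (all genes 5.92%), and no filter on calls gave 2 in KAT2a knockout (all genes 4.95%). Counting members without overlap between groups gave 8, 9 and 7 by rank, against 30.9%, 29.3% and 31.9% of all genes, and 4 by rank and 6 by width for acetate against CPT1a knockout, where limma gave 0, against 14.2% and 13.2%. By width (17, 17 and 13), the strongest peak alone gave 6, 6 and 7 (all genes 14.7%, 12.01% and 10.01%). Widths without centring gave 4 in KAT2a knockout and 5 with acetate (all genes 22.1% and 33.6%). Fits on only the groups compared gave 11 in KAT2a knockout and 8 with acetate (all genes 11.4% and 8.77%).

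Alternatives chosen after seeing the data were the 8 libraries of similar calling depth, which gave 0, 0 and 0 by rank, and the removal of the GC trend from widths. Replicate numbers did not pair the libraries (correlations of same-numbered deviations from -0.0439 to 0.0673). With the replicate block, 2 members were called by rank in KAT2a knockout, against 3.14% of all genes. By width, 14 were wider and 2 narrower, 13 and 1, and 11 and 2, against 19.6%, 15.3% and 15.7% of all genes called in either direction.

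Members called in 3 of 3 against 0 of 3 libraries numbered 1, 1, 3 and 5 in CPT1a knockout against scramble (0 in the report) with a 500 bp window, summits inside the promoter, lists of equal length and equal calling depth, against 0.248%, 0.708%, 1.00% and 1.38% of all genes. They numbered 3, 2, 3 and 5 in KAT2a knockout and 2, 2, 2 and 5 with acetate (1 each in the report), against 0.841%, 1.16%, 1.13% and 1.73% of all genes in KAT2a knockout and 0.359%, 0.754%, 0.607% and 1.085% with acetate. At a −log10 q of at least 5 they numbered 2 in KAT2a knockout and 0 with acetate, against 0.745% and 0.303% of all genes. The mean number of members called was 34.3, 32.3 and 31.3 in scramble with summits inside the promoter, equal length and equal depth. With acetate it was 39.7 (500 bp), 38.0, 39.3 (−log10 q), 38.3 and 39.0, and in KAT2a knockout 41.3 (500 bp), 40.3, 40.0 and 40.0.

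Leaving out 1 library gave 0 to 3, 0 to 2 and 1 to 4 members by rank, 13 to 19, 11 to 18 and 8 to 18 by width, and 0 to 1, 1 to 3 and 1 to 2 by calls in CPT1a knockout, KAT2a knockout and the acetate group against scramble. For acetate against CPT1a knockout it gave 0 to 0 by rank and by width and 0 to 1 by calls. The mean number called ranged from 36.5 to 39.0 in scramble, 39.5 to 41.5 in CPT1a knockout, 40.0 to 40.5 with acetate and 42.0 to 42.5 in KAT2a knockout.

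Without centring, the sign of the width difference turned for Bmp1 (-0.30), Dll1 (-0.0899), Fzd2 (-0.25), Hes1 (-0.0104), Notch1 (-0.15), Tgfb2 (-0.0597), Tgfb3 (-0.11) and Wnt7b (-0.0600) in CPT1a knockout, for Bmp1 (-0.0572), Smad3 (-0.0234) and Smad5 (-0.0283) in KAT2a knockout, and for Dll1 (-0.0398), Hes1 (-0.0648), Notch1 (-0.0749) and Tgfb3 (-0.0150) with acetate. For Wnt10a in KAT2a knockout it turned with the strongest peak alone (-0.15). Centring subtracts the library medians, which differ between groups; the cause of the other changes was not tested. Of the results for single members, 107 by rank and 731 by width kept direction and call, and 61 and 193 kept direction and lost the call.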

Other observations

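With all lists at the same calling depth, the calls of 3 members that had a promoter peak in all 12 libraries thinned in scramble as well. Bmp7 was then called in 1 of 3 scramble libraries, Fzd3 in 1 and Dll4 in 2, against 3 of 3 in each of the other groups. Notch3 was called in 3 of 3 KAT2a knockout libraries and in none of the other 9. Among other pathway genes with mixed calls in the full lists were Tgfbi, a matrix protein gene induced by TGF-beta, and the Wnt effector gene Lef1. Tgfbi was called in 0 of 3 scramble libraries and 3 of 3 KAT2a knockout libraries, as were 152 of all 21755 genes. Lef1 was called in 1 of 3 scramble libraries and 8 of 12 in all.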
